A study of Mus musculus with 13 samples.

Results

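The ionotropic and metabotropic receptors for glutamate and GABA were examined in right hemispheres of mouse pups at postnatal day 11. The members were the protein-coding genes whose mouse symbols name a subunit of the AMPA (Gria1 to Gria4), kainate (Grik), NMDA (Grin), delta (Grid) or metabotropic (Grm) glutamate receptors, or of the GABA-A (Gabr) or GABA-B (Gabbr) receptors. This rule used names and no measured value, and it found 47 genes, 26 for glutamate and 21 for GABA, among the 48795 genes of the count table. Of these, 41 passed the filter on low counts and were tested, and 6 did not pass.

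RNA sequencing had been performed on 5 control, 5 nlsYAP5SA and 3 C57BL/6 hemispheres. The nlsYAP5SA mice were NexCre +/- YAP5SAnls +/-: they carried 1 copy of Cre in the Neurod6 (NEX) locus and 1 copy of a transgene for a constitutively active, nuclear YAP1 that is switched on by Cre. The controls were their NexCre -/- YAP5SAnls +/- littermates, which carry the same transgene without Cre. The C57BL/6 mice were wild type and came from other litters. All 13 mice had the C57BL/6J strain background and were collected at postnatal day 11, when the nlsYAP5SA brains form ependymoma-like tumours. NEX-Cre is active in the lineage of forebrain excitatory neurons, so that the transgene is expressed in only some cells of a hemisphere. Per the methods the olfactory bulbs and the cerebellum had been removed, and the littermates came from more than 1 mating, which the labels do not name. In such whole-tissue RNA, fewer cells of a type and less RNA per cell cannot be told apart.

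Glutamate is the main excitatory and GABA the main inhibitory transmitter of the brain. AMPA, kainate and NMDA receptors are cation channels assembled from several subunits, whereas the metabotropic glutamate receptors (mGlu) signal through G proteins and are divided into groups I, II and III by sequence and coupling. GABA-A receptors are chloride channels built mostly from alpha, beta and gamma or delta subunits, and GABA-B receptors are obligate pairs of a GABBR1 and a GABBR2 protein that signal through G proteins. Subunit composition changes as the brain matures, and the second postnatal week in the mouse lies within that period.

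The libraries held between 20871566 and 25524349 estimated counts. The locus checks went as labelled: Neurod6, whose coding sequence is replaced on the NEX-Cre allele, was 97.2 ± 7.61 CPM (counts normalised to library size; mean ± SD, n = 5) in controls, 49.2 ± 7.16 CPM (n = 5) in nlsYAP5SA and 94.3 ± 7.44 CPM (n = 3) in C57BL/6, and Yap1 rose by 0.23 on the log2 scale in nlsYAP5SA against control (SE 0.062, adjusted p = 0.0361). The groups were not matched for sex, which the labels do not give. The 4 Y-linked genes Ddx3y, Eif2s3y, Kdm5d and Uty summed to at least 91.0 CPM in 5 of 5 controls, in 2 of 5 nlsYAP5SA mice (replicates 3 and 4) and in 2 of 3 C57BL/6 mice (replicates 1 and 3), and to at most 0.0942 CPM in the others. Genotype and sex were therefore partly confounded, and the subunit results are given with and without the mice that lack Y-linked counts.

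Of the 6 subunit genes that fell in the nlsYAP5SA hemispheres, 4 had a promoter in the RefSeq table for GRCm38.p6. They are Gabra2 (GABA-A alpha 2), Grik4 (a kainate receptor subunit), Grm2 (mGlu2) and Gabbr1 (GABA-B). Their 250 bases before the start in that table are printed here so that the letters around the starts of genes that fell together can be compared, with the GC box letters GGGCGG in capitals. The annotation behind the gene coordinates given with the results starts Grik4 further upstream, at 42944493, so part of its window lies inside the gene there.
Gabra2, chr5:71095850-71096099, minus strand: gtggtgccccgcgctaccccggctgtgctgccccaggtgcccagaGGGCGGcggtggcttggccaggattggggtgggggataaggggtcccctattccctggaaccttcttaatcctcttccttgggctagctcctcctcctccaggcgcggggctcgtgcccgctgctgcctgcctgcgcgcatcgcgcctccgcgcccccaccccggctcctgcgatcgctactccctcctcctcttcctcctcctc
Grik4, chr9:42944372-42944621, minus strand: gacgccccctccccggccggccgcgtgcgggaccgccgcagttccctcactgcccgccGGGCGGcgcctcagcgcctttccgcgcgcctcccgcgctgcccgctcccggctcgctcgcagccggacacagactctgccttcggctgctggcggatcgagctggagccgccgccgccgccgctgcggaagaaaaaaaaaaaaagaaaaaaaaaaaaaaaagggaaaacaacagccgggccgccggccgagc
Grm2, chr9:106656110-106656359, minus strand: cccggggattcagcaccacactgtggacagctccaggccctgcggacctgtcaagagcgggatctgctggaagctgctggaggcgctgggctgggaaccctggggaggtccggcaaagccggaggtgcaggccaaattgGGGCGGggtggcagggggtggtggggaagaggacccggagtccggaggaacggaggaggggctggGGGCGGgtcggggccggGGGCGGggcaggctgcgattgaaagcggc
Gabbr1, chr17:37045716-37045965, plus strand: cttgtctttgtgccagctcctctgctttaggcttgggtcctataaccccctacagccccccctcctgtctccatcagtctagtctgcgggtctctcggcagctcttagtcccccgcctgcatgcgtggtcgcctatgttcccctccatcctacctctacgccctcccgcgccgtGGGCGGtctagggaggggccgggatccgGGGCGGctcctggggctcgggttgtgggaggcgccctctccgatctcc
Grm4 and Gabrd fell as well. The 4 windows held 70.0%, 69.6%, 71.2% and 66.0% G and C, and each held GGGCGG at least once, read on both strands. Grm2 held it 3 times and Gabbr1 2 times. Of all 32851 windows of the same length in the table, 32.7% held GGGCGG, as did 18 of the 39 windows of the 32 members the table covers. The letters GGAATG, the core bound by the TEAD factors through which YAP1 acts, were in none of these 4 windows on either strand, in 12.6% of all windows and in 6 of the 39 member windows (those of Gabra3, Gabrb2, Grin1, Grm7 and Grm8). These are matches of letters, and no binding was measured.

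Levels were compared between genes as CPM per kb of merged exons, over the 5 controls. The GABA-B subunit gene Gabbr1 had the highest level of all members, 98.0 ± 1.02 CPM per kb, and its 5 control values, from 96.4 to 99.1, lay above those of every other member. Gria1, which encodes the AMPA subunit GluA1, followed with 60.3 ± 3.51 and Gabbr2 with 57.9 ± 3.90 CPM per kb. The control ranges of both overlapped. Per kb of the longest transcript in place of merged exons, Grin1 came second with 72.1, above Gabbr2 (67.4) and Gria1 (65.7), and Gabbr1 remained highest (145). Lower levels were those of Gabra5 (alpha 5, an extrasynaptic subunit of the hippocampus) at 41.5 ± 2.64, Grik5 (the high-affinity kainate subunit KA2) at 36.4 ± 1.69 and Gabra3 at 35.7 ± 1.47 CPM per kb. The controls of Grik5 and Gabra3 overlapped.

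**Figure D1:**
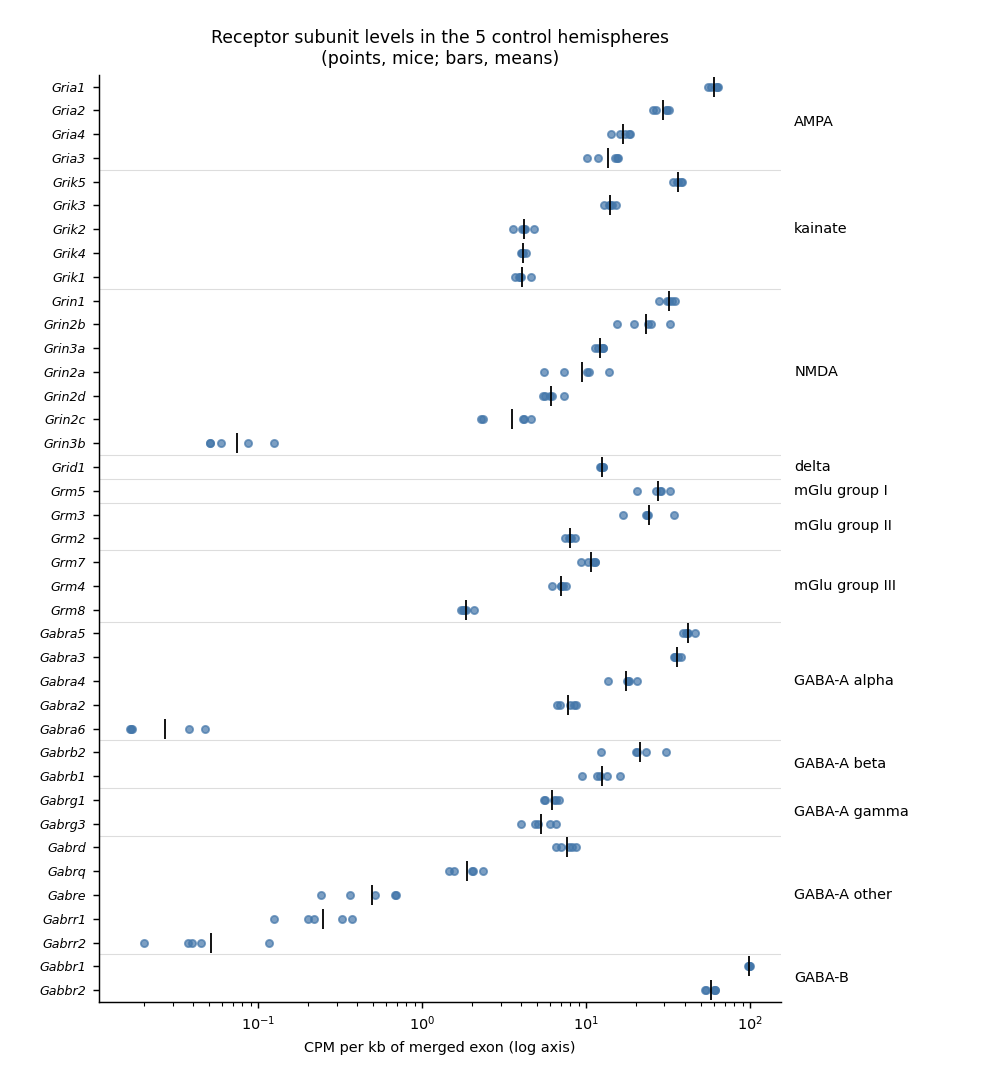
Level of subunit genes in control hemispheres, as CPM per kb of merged exons on a log axis, for 39 members with a count in all 5 controls. Points are mice, vertical bars are means, and genes are grouped by subfamily; Gabbr1 lies highest at 98.0 CPM per kb, and Gabra6, Gabrr2 and Grin3b lie below 0.13.

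Within subfamilies the AMPA genes ran from Gria1 down over Gria2 (GluA2, which makes the channel impermeable to calcium when edited; 29.2 ± 2.99) and Gria4 (16.8 ± 1.77) to Gria3 (13.6 ± 2.47 CPM per kb), with overlap between Gria4 and Gria3, whose order turned per kb of the longest transcript (19.5 and 25.8). Of the NMDA genes, the obligatory subunit Grin1 stood at 31.8 ± 2.63, the juvenile subunit Grin2b at 23.2 ± 6.35, Grin3a at 12.2 ± 0.613, the later-rising Grin2a at 9.42 ± 3.13, Grin2d at 6.11 ± 0.722 and Grin2c at 3.50 ± 1.11 CPM per kb. The kainate genes other than Grik5 were lower, Grik3 between 12.9 and 15.2 and Grik2, Grik4 and Grik1 between 4.03 and 4.16 CPM per kb with overlapping controls. Among the mGlu genes, Grm5 (27.3 ± 4.37) and Grm3 (24.3 ± 6.31), the latter also a receptor of astrocytes, were highest and did not separate. Grm7 (10.6), Grm2 (7.99) and Grm4 (6.98) followed, and Grm8 was the lowest tested mGlu gene at 1.84 CPM per kb. Grid1, a delta receptor gene, stood at 12.4 ± 0.230 CPM per kb.

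The GABA-A genes Gabra4 and Gabra2, the latter a subunit of the immature forebrain, stood at 17.6 ± 2.45 and 7.73 ± 0.906 CPM per kb. Gabrb2 was at 21.4 ± 6.70, Gabrb1 at 12.5 ± 2.48, Gabrg1 at 6.17 ± 0.561 and Gabrg3 at 5.30 ± 0.984 CPM per kb, and the controls of Gabrg1 and Gabrg3 overlapped. Gabrd, the delta subunit of tonic inhibition, stood at 7.63 ± 0.853, Gabrq at 1.88, Gabre at 0.496 and Gabrr1, best known from the retina, at 0.249 CPM per kb. The 6 members that failed the filter had few reads in every library. Grm6, the receptor of retinal bipolar cells, had 0 to 1 counts, Gabrr3 0 to 1, Gabrp 0 to 2, Gabra6, the alpha subunit of cerebellar granule cells, 0 to 3, Gabrr2 1 to 7 and Grin3b 1 to 10 counts; they were not tested.

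The control mice differed among themselves by more for some subunits than for others. The highest control was a median of 1.30 times the lowest over the 41 tested genes, from 1.03 times for Gabbr1 to 2.97 times for Gabrr1. Gabrb2 ran from 77.7 to 196 CPM, Grin2a from 98.8 to 245, Grin2b from 382 to 803 and Grm3 from 51.0 to 105 CPM over the 5 controls, and in all 4 genes replicate 1 was lowest and replicate 3 highest. Replicate 1 was the lowest control for 23 of the 41 genes and replicate 3 the highest for 21. Of the C57BL/6 mice, replicate 2 was the lowest of all 13 mice for 18 genes and replicate 3 the highest of 13 for 17. The ratio of highest to lowest control had a Spearman rho of 0.0146 with transcript length over the 41 genes. For the single pair of replicates 3 and 1, over the 41 genes, the log2 ratio of control replicate 3 to replicate 1 had a Spearman rho of -0.47 with the percent GC of the transcript and 0.32 with its length, and over 16262 tested genes rho was -0.37 and 0.55. These are correlations across genes of the same libraries, given as a description.

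**Figure D2:**
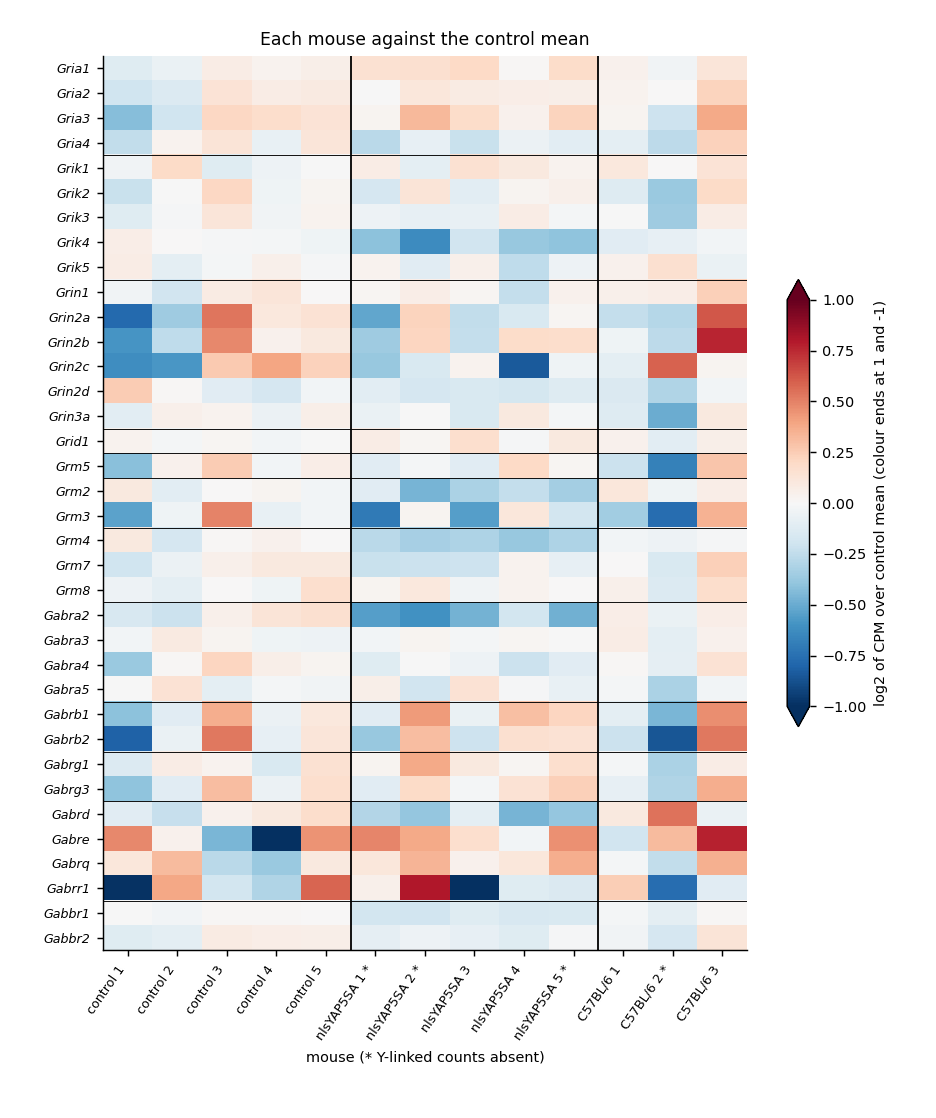
Log2 of each mouse's CPM over the control mean for 36 tested subunit genes (rows, by subfamily) in 13 mice (columns; vertical lines divide control, nlsYAP5SA and C57BL/6). Grin2a, Grin2b, Grm3 and Gabrb2 are low in control 1 and high in control 3 and C57BL/6 3, while Grik4, Grm2, Grm4 and Gabbr1 are low in each nlsYAP5SA mouse.

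The comparison of nlsYAP5SA with control asked which subunit genes differed in hemispheres with an active nuclear YAP1 in the NEX-Cre lineage. None of the 41 rose and 6 fell: Grm4, Grik4, Gabra2, Grm2, Gabbr1 and Gabrd (edgeR quasi-likelihood test, Benjamini-Hochberg adjusted p of 0.05 or less over all 16315 genes tested). Of all genes tested, 3.44% fell (561) and 7.36% rose (1200). With an ordinary loess offset for GC content and length 2100 fell and 1308 rose, and 11 of the subunits fell. That offset moved the median log2 fold change over all genes from -0.005 to -0.055. The 6 genes fell by 0.16 to 0.45 on the log2 scale. The median log2 fold change over the 41 was -0.01, as over all genes (-0.01). The fitted value was above 0 for 17 of the 41 and below 0 for 24 (58.5%), beside 51.3% below 0 of all genes tested. By transmitter, 3 of 24 tested glutamate receptor genes and 3 of 17 GABA receptor genes fell. Every nlsYAP5SA mouse lay below every control for 4 of the 41 (Grm4, Grik4, Grm2 and Gabbr1), which 3.57% of all genes tested did, and above every control for 0 of the 41, which 6.5% of all genes tested did. Between the 5 controls and the 2 nlsYAP5SA mice that have Y-linked counts, 0 of the 41 passed the test, and the 6 genes were lower by 0.15 to 0.35 on the log2 scale. The smaller number of mice and the absence of mice without Y-linked counts cannot be told apart in that fit.

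**Figure D3:**
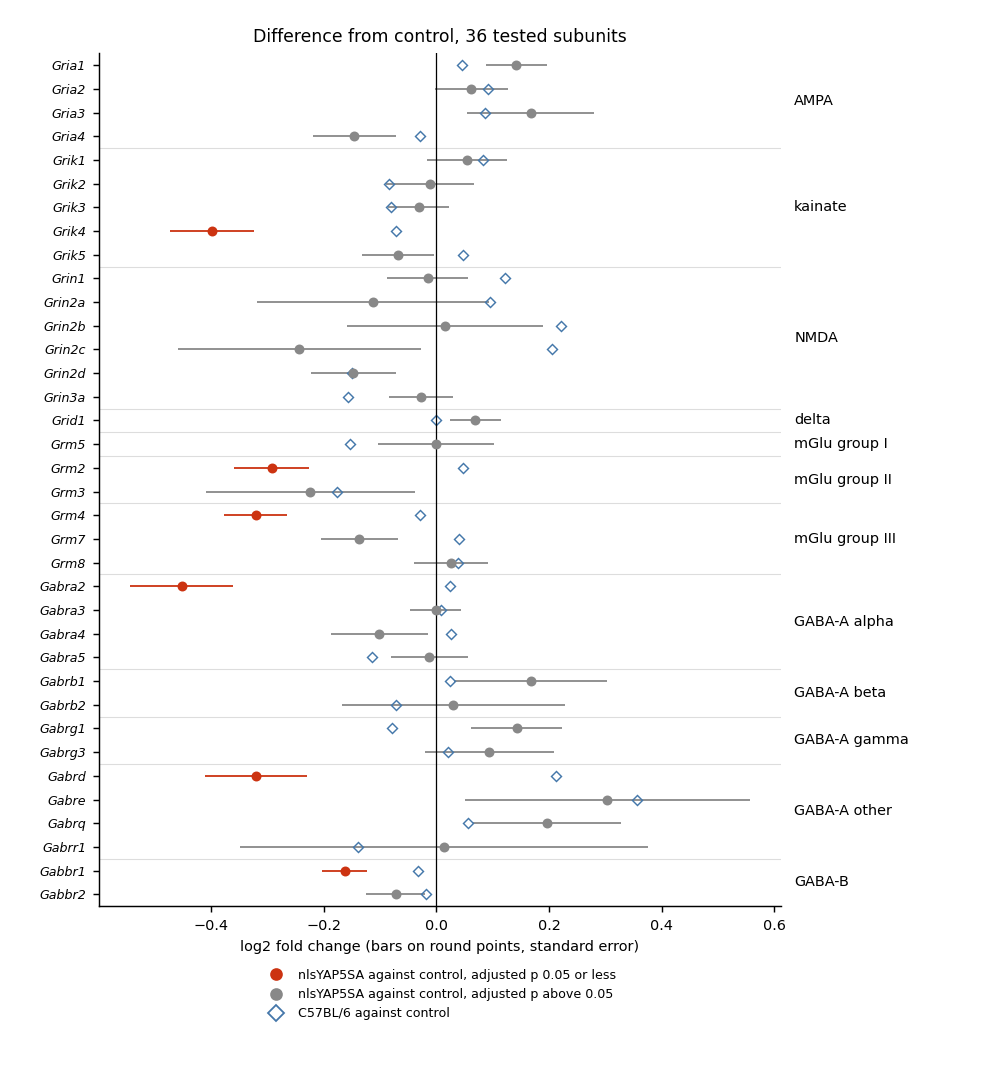
Log2 fold change of 36 tested subunit genes in nlsYAP5SA against control (round points, with standard error; red where the adjusted p was 0.05 or less) and in C57BL/6 against control (open diamonds). The 6 red points lie between -0.45 and -0.16, the other 30 round points have adjusted p above 0.05, and no diamond passed the test.

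Among the metabotropic receptors, Grm4 (ENSMUSG00000063239, chr17:27422387-27521403, GRCm38, minus strand) had the smallest adjusted p of any member. It encodes mGlu4, a presynaptic group III receptor. Grm4 was 44.7, 37.1, 41.9, 42.9 and 41.9 CPM in control replicates 1 to 5, 34.6, 33.2, 33.7, 32.0 and 33.6 CPM in nlsYAP5SA and 41.0, 40.2 and 41.3 CPM in C57BL/6. All 5 nlsYAP5SA mice lay below the 8 others, and the log2 fold change against control was -0.32 (SE 0.056, adjusted p = 0.00266). Grm2 (ENSMUSG00000023192, chr9:106643095-106656082, minus strand), the group II autoreceptor mGlu2, was 41.8, 36.3, 39.1, 39.8 and 38.4 CPM in controls, 36.2, 28.3, 31.3, 33.1 and 30.9 CPM in nlsYAP5SA and 42.2, 37.9 and 41.0 CPM in C57BL/6. The nlsYAP5SA mice again lay below the rest, replicate 1 by the least, with a log2 fold change of -0.29 (SE 0.067, adjusted p = 0.0133). Of the merged exons of Grm2, 470 of 4894 bases are shared with Gm28111 on the opposite strand, and the strand setting of the counting is not given in the sources used here. The other mGlu genes did not pass the test. Grm3 was 51.0, 71.7, 105, 70.2 and 72.9 CPM in controls, 45.4, 75.7, 50.4, 80.0 and 65.4 CPM in nlsYAP5SA and 58.2, 43.8 and 94.4 CPM in C57BL/6. This group II partner of Grm2 varied within each group by more than the groups differed (-0.22, SE 0.19, adjusted p = 0.502). Grm7 was 54.5, 60.0, 64.7, 66.8 and 66.8 CPM in controls, 53.7, 53.9, 54.1, 64.1 and 59.1 CPM in nlsYAP5SA and 62.8, 56.4 and 73.8 CPM in C57BL/6 (log2 fold change -0.14, adjusted p = 0.247). It passed with an ordinary loess offset (-0.21, adjusted p = 0.0169) and with a replicate block and robust offset (-0.16, adjusted p = 0.0303). With a robust offset alone Grm7 did not pass. Grm5 was 209, 288, 332, 274 and 292 CPM in controls, 258, 276, 258, 320 and 283 CPM in nlsYAP5SA and 241, 174 and 338 CPM in C57BL/6 (0.00, adjusted p = 0.996). Grm5 encodes mGlu5, the main group I receptor of the young forebrain, and its C57BL/6 mice alone spanned more than all nlsYAP5SA mice. Grm8 was 0.03.

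Of the 5 kainate receptor genes, Grik4 (ENSMUSG00000032017, chr9:42518135-42944493, minus strand) fell. It encodes KA1, a high-affinity subunit known for its expression in hippocampal CA3. Grik4 was 25.7, 24.5, 24.3, 24.1 and 23.8 CPM in controls, 18.4, 15.8, 21.4, 18.8 and 18.6 CPM in nlsYAP5SA and 22.7, 23.1 and 24.1 CPM in C57BL/6. The nlsYAP5SA mice lay below the 8 others, and replicate 3 was the highest nlsYAP5SA mouse; the log2 fold change was -0.40 (SE 0.075, adjusted p = 0.00424). Grik5 was 198, 176, 186, 194 and 186 CPM in controls, 192, 173, 194, 157 and 181 CPM in nlsYAP5SA and 193, 210 and 179 CPM in C57BL/6. This other high-affinity subunit had overlapping groups (log2 fold change -0.07, adjusted p = 0.561), and Grik1, Grik2 and Grik3 lay between -0.03 and 0.05.

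None of the AMPA, NMDA and delta receptor genes passed the test. The nearest was Gria1, at 336, 349, 384, 374 and 380 CPM in controls, 406, 408, 418, 368 and 415 CPM in nlsYAP5SA and 376, 356 and 397 CPM in C57BL/6 (log2 fold change 0.14, SE 0.054, unadjusted p = 0.0213, adjusted p = 0.122). The nlsYAP5SA mice other than replicate 4 lay above all controls. Gria2 was 0.06 (adjusted p = 0.608), Gria3 0.17 (0.395) and Gria4 -0.15 (adjusted p = 0.2498) on the log2 scale. Gria4 passed with a loess offset for GC content and length, ordinary (-0.23, adjusted p = 0.00169) or robust (-0.19, adjusted p = 0.00586). Grin1, which every NMDA receptor needs, was 301, 270, 326, 336 and 309 CPM in controls, 312, 323, 313, 261 and 318 CPM in nlsYAP5SA and 319, 323 and 363 CPM in C57BL/6, with a log2 fold change of -0.02 (SE 0.072, adjusted p = 0.926). Grin2b was 0.01 (SE 0.17), Grin2a -0.11 (SE 0.21) and Grin2c -0.24 (SE 0.22), so that changes of this size were within the spread of these mice. Grid1 was 75.7, 72.8, 75.0, 72.5 and 73.7 CPM in controls, 78.0, 74.9, 83.2, 73.3 and 79.2 CPM in nlsYAP5SA and 76.2, 68.6 and 76.9 CPM in C57BL/6, with a log2 fold change of 0.07. The groups overlapped.

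**Figure D4:**
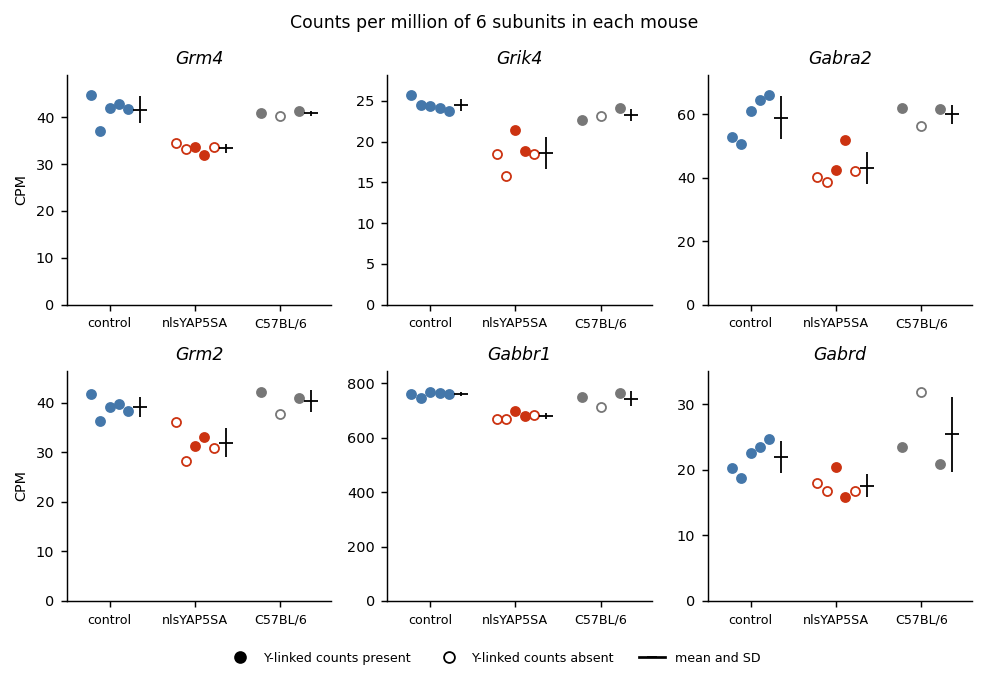
CPM in each mouse of the 6 subunit genes that fell in nlsYAP5SA against control, on linear axes from 0. Filled points are mice with Y-linked counts, open points mice without, and the bar at the right of each group is the mean with SD (n = 5, 5 and 3); nlsYAP5SA lies below all controls for Grm4, Grik4, Grm2 and Gabbr1, and Gabra2 and Gabrd overlap.

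Of the GABA-A receptor genes, Gabra2 (ENSMUSG00000000560, chr5:70957597-71095849, minus strand) had the largest fall of the 41, 26.9%. It was 52.8, 50.7, 61.1, 64.6 and 66.0 CPM in controls, 40.3, 38.8, 42.5, 52.0 and 42.2 CPM in nlsYAP5SA and 61.9, 56.5 and 61.7 CPM in C57BL/6 (log2 fold change -0.45, SE 0.092, adjusted p = 0.00691). The groups overlapped through nlsYAP5SA replicate 4 alone, which exceeded control replicate 2. Gabra5 was 123, 136, 115, 122 and 121 CPM in controls, 129, 108, 137, 122 and 118 CPM in nlsYAP5SA and 122, 99.4 and 121 CPM in C57BL/6. Gabra5 is the alpha gene with the highest level per kb of merged exons, though not per kb of the longest transcript, and its groups overlapped (-0.01, adjusted p = 0.94). Gabra2 lies in a cluster of GABA-A genes on chromosome 5 with Gabrg1 (chr5:70751047-70842617), Gabra4 (chr5:71569749-71658308) and Gabrb1 (chr5:71658113-72149037), and the neighbours did not pass the test: Gabrg1 was 0.14 (SE 0.081), Gabra4 -0.10 (SE 0.086) and Gabrb1 0.17 (SE 0.14) on the log2 scale. The fitted log2 fold changes of the 5 tested alpha genes ran from -0.45 for Gabra2 to 0.00 for Gabra3 (SE 0.046). Those of the 3 beta genes ran from 0.03 for Gabrb2 (SE 0.20) to 0.17 for Gabrb1. The mean of Gabra3 was 140 CPM in both groups. Among these 8 genes Gabra2 alone passed the test.

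Gabrd (ENSMUSG00000029054, chr4:155384980-155398112, minus strand), the delta subunit, was 20.2, 18.7, 22.6, 23.4 and 24.8 CPM in controls, 17.9, 16.8, 20.5, 15.9 and 16.8 CPM in nlsYAP5SA and 23.4, 31.9 and 20.9 CPM in C57BL/6. It fell by 0.32 on the log2 scale (SE 0.091, adjusted p = 0.0408), with nlsYAP5SA replicate 3 inside the control range. This call was the least stable of the 6, and passed in 9 of 23 alternative fits. The gamma genes did not pass. Gabrg3 was 0.09 on the log2 scale. The minor subunits Gabre (0.30, SE 0.25), Gabrq (0.20) and Gabrr1 (0.01) did not pass either.

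Of the GABA-B pair, Gabbr1 (ENSMUSG00000024462, chr17:37045966-37075067, plus strand) fell by 10.7%, the smallest of the 6 differences. It was 760, 748, 769, 765 and 762 CPM in controls, 671, 668, 699, 681 and 685 CPM in nlsYAP5SA and 752, 713 and 767 CPM in C57BL/6 (log2 fold change -0.16, SE 0.040, adjusted p = 0.0191). All nlsYAP5SA mice lay below the other 8. The call was lost in 8 of 23 alternative fits, with library size alone (adjusted p = 0.0702), no filter on low counts (0.0773), a replicate block (0.113), both Y-linked settings, and without control replicate 4 (0.0547), nlsYAP5SA replicate 1 (0.0562) or nlsYAP5SA replicate 2 (adjusted p = 0.0587), with log2 fold changes from -0.17 to -0.14. Gabbr2, its partner, was 387 ± 26.1 CPM in controls and 369 ± 10.9 CPM in nlsYAP5SA (n = 5 each), a log2 fold change of -0.07 (adjusted p = 0.438). With an ordinary loess offset Gabbr2 was -0.11 (adjusted p = 0.0491), where the median over all genes was -0.055. With a robust offset Gabbr2 did not pass.

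Within the mice that have Y-linked counts, 2 of them nlsYAP5SA, the differences of Grik4 and Gabra2 were smaller than over all mice by more than 1 SE, and those of the other 4 genes were within 1 SE. The log2 fold change between 5 controls and these 2 was -0.35 for Grm4 (adjusted p = 0.0986), -0.29 for Grik4 (0.189), -0.33 for Gabra2 (0.355), -0.28 for Grm2 (0.144), -0.15 for Gabbr1 (0.463) and -0.27 for Gabrd (adjusted p = 0.562). Over all genes this fit called 26 lower and 308 higher. With the Y-linked level as a covariate over all 10 mice, Grm4 alone stayed past the threshold (-0.34, adjusted p = 0.0319), and 66 genes were lower and 476 higher. No control lacked Y-linked counts, so the mice without them could not be compared within themselves.

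Markers of cell types moved as well, and their part in the subunit results was not tested. Of 10 markers of neurons in general none passed the test and 9 had a log2 fold change below 0. Their summed level was 6724 to 6955 CPM in controls, 6372 to 6688 CPM in nlsYAP5SA and 6356 to 7058 CPM in C57BL/6, so that nlsYAP5SA lay below the controls and inside the C57BL/6 range. Of 10 markers of forebrain excitatory neurons Neurod6 and Cux2 fell (summed level 711 to 802 CPM in controls, 635 to 726 in nlsYAP5SA). The coding sequence of Neurod6 is replaced on the NEX-Cre allele, so its fall is built into the genotype, and the summed level includes it. Of 10 hippocampal markers Fibcd1 fell by 0.78 and Dsp rose (747 to 946 against 811 to 920 CPM). Of 10 interneuron markers Pvalb and Cck fell (331 to 381 against 306 to 357 CPM). Of the glial lists, 4 of 10 astrocyte markers rose, led by Gfap (log2 fold change 2.06; summed level 1258 to 1488 against 2100 to 2428 CPM), 8 of 10 microglial markers rose (331 to 410 against 504 to 645 CPM), and 2 of 8 oligodendrocyte precursor markers fell (652 to 731 against 596 to 697 CPM). Of 8 oligodendrocyte markers Ermn alone passed, while all 8 means were lower, with a median log2 fold change of -0.59, 7 of 8 unadjusted p of 0.05 or less, and a summed level of 2087 to 3502 CPM in controls and 1338 to 2882 CPM in nlsYAP5SA. Of 10 endothelial and pericyte markers 5 fell and 1 rose, and 2 of 9 ependymal and 2 of 10 choroid plexus markers rose. No marker of striatal, thalamic, cerebellar or hypothalamic neurons passed the test. The choroid plexus gene Ttr ran from 0.822 to 217 CPM in controls and from 0.783 to 276 CPM in nlsYAP5SA.

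The wild-type mice were compared with the controls, which carry the transgene without Cre. The 3 C57BL/6 mice also came from other litters, and 2 of 3 had Y-linked counts against 5 of 5 controls. The transgene, litter and sex therefore cannot be told apart here, and 3 mice limit what could be shown. None of the 41 genes passed in C57BL/6 against control, where 0.169% of the 16546 genes tested did (28), and 0 of the 41 had an unadjusted p of 0.05 or less. The log2 fold changes ran from -0.18 (Grm3) to 0.36 (Gabre) with a median of 0.01, and Gabrd stood at 0.21. DESeq2 called 0 of the 41 too.

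Against C57BL/6, which uses the same nlsYAP5SA mice a second time, 4 of the 41 fell in nlsYAP5SA and 0 rose. Of 16641 genes tested, 2.22% fell and 4.16% rose. Grm4 was -0.30 (adjusted p = 0.0147), Gabra2 -0.49 (0.0148), Grm2 -0.35 (0.0342) and Gabrd -0.55 (adjusted p = 0.0453) on the log2 scale. The Gabrd value was -0.33 without C57BL/6 replicate 2 (adjusted p = 0.153), and its call was also lost without C57BL/6 replicate 1 or without nlsYAP5SA replicate 1, 2, 4 or 5. Grik4 was -0.34 (adjusted p = 0.0658) and Gabbr1 -0.14 (0.183), and did not pass. The 4 calls were lost without C57BL/6 replicate 1 or without nlsYAP5SA replicate 5, where 0 of the 41 passed, and leaving out C57BL/6 replicate 2, nlsYAP5SA replicate 2 or nlsYAP5SA replicate 4 left 2 each. Among the mice with Y-linked counts, 2 of each genotype, 0 passed.

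Ratios between subunits of the same mouse do not depend on library size, and 8 were compared between control and nlsYAP5SA by two-sided exact permutation tests over the 252 ways to divide 10 mice. None passed a Benjamini-Hochberg adjusted p of 0.05 over the 8. The log2 ratio of Gria2 to Gria4 was 2.15, 1.93, 2.11, 2.25 and 2.07 in controls and 2.36, 2.29, 2.40, 2.22 and 2.26 in nlsYAP5SA, a difference of 0.21 ± 0.062 (SE; exact p = 0.0159, adjusted 0.0952), with nlsYAP5SA replicate 4 inside the control range. Grin2a over Grin2b, the switch of NMDA receptors from juvenile to mature form, differed by -0.11 ± 0.080 (exact p = 0.19, adjusted 0.227). Slc12a5 over Slc12a2, the chloride exporter KCC2 over the importer NKCC1, which sets whether GABA hyperpolarises a neuron, was 2.57 ± 0.222 in controls and 2.27 ± 0.187 in nlsYAP5SA (n = 5 each), a difference of -0.30 ± 0.13 (exact p = 0.0238, adjusted 0.0952). Gria2 over Gria1 differed by -0.08 ± 0.048 (exact p = 0.151, adjusted 0.227) and Gabbr1 over Gabbr2 by -0.09 ± 0.045 (exact p = 0.0873, adjusted 0.175).

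**Figure D5:**
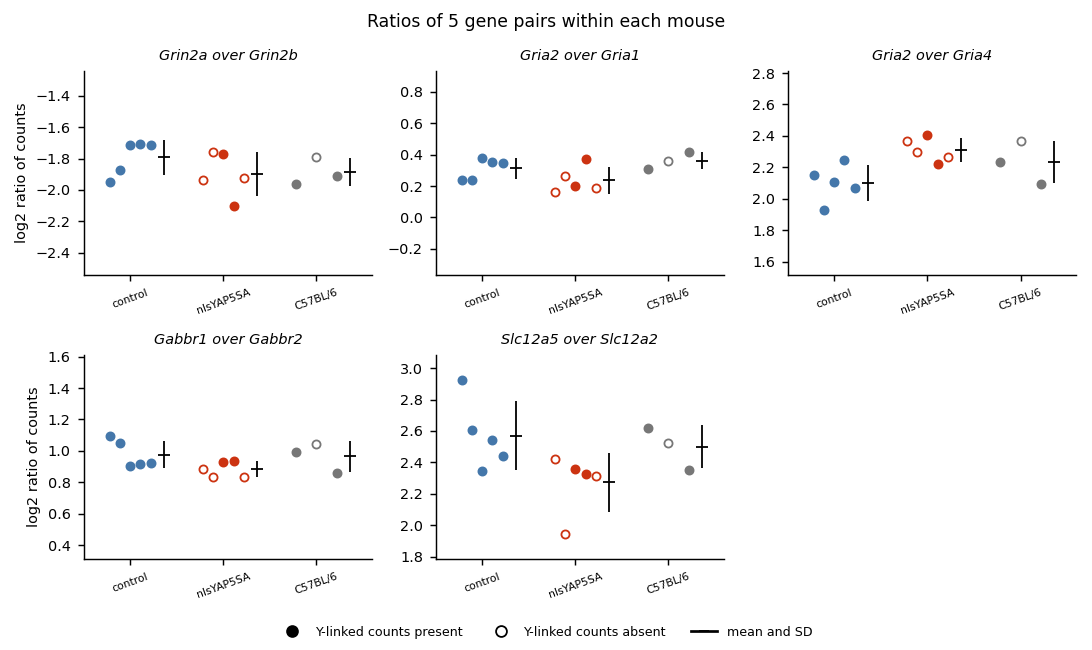
Log2 ratio of estimated counts of 5 gene pairs in each mouse; every panel spans the same height. Filled points are mice with Y-linked counts, open points mice without, and bars at the right are means with SD (n = 5, 5 and 3); the groups overlap in each panel.

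The other genes of the glutamate and GABA pathways were taken from fixed lists, tested in the same fit. Of 72 partner genes, 7 fell (9.72%) and 2 rose (2.78%), and their log2 fold changes had a median of -0.04; of all genes tested, 3.44% fell and 7.36% rose. Of 15 auxiliary subunits of ionotropic glutamate receptors 3 fell and 0 rose, with 14 of 15 log2 fold changes below 0 and a median of -0.12. These were Cacng2 (stargazin, which brings AMPA receptors to the synapse), 126 ± 11.7 CPM in controls and 106 ± 6.16 in nlsYAP5SA (-0.25, SE 0.069, adjusted p = 0.0386), Shisa6, which keeps AMPA receptors at the postsynapse (-0.34, SE 0.055, adjusted p = 0.00147), and Gsg1l, an AMPA receptor modulator (-0.26, SE 0.042, adjusted p = 0.00155). For Shisa6 and Gsg1l the 5 nlsYAP5SA mice lay below all controls, with 44.1 to 48.7 against 51.5 to 62.1 CPM and 49.8 to 54.1 against 59.5 to 63.1 CPM. Of 18 postsynaptic scaffolds Homer3 (-0.33) and Grip2, which binds AMPA receptor tails (-0.32), fell.

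Of 11 genes of glutamate release, uptake and turnover, the astrocytic transporter gene Slc1a3 rose (614 ± 67.3 against 764 ± 63.0 CPM, log2 fold change 0.31), as did the glutamine synthetase gene Glul (0.46, SE 0.12, adjusted p = 0.0305), and the glutaminase gene Gls2 fell (-0.47, SE 0.13, adjusted p = 0.0408). The other 8 did not pass. The calls of Slc1a3 and Glul were both lost with a replicate block, with the Y-linked or the Ttr level as covariate, and without control replicate 2 or nlsYAP5SA replicate 1, 2 or 5, where 0 of the 72 partners rose. Of 9 GABA genes the GABA transporter gene Slc6a11 fell (-0.23, SE 0.064, adjusted p = 0.035), and the other 8 did not pass. None of the 13 genes of the inhibitory postsynapse and GABA-B auxiliary subunits and none of the 6 tested chloride transporter and glycine receptor genes passed. Between the mice with Y-linked counts, 0 of the 72 partner genes passed in either direction.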

How the data were processed

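Per the labels and the methods, the authors used cutadapt 1.5 for trimming, STAR for alignment to GRCm38 and RSEM 1.3.0 for counting per gene. They deposited estimated counts for 13 samples, neither normalised nor filtered. The members and gene lists were chosen with earlier results of these data known. Any member could be named, with values per mouse for those called and for the highest per length of each subfamily, though 5 members, counted in the totals, and 3 of the 8 ratios are not reported here; partners and markers were named where called, or as members of a compared ratio.

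Estimated counts were rounded and analysed in R 4.3.3 with edgeR 4.0.16 (TMM, filterByExpr with a minimum count of 10 and total of 15, quasi-likelihood test) for each pair of groups, two-sided, and a gene passed at 0.05 or less after Benjamini-Hochberg adjustment over all genes tested. CPM used TMM library sizes over all 13 samples. Ratios had 0.5 counts added to each gene. Positions, lengths and percent GC came from GENCODE M21, a later release than the authors used. Mice with summed Y-linked CPM above 5 were taken to have Y-linked counts. DESeq2 1.42.0 and other normalisations, filters and covariates were alternatives, and scripts were tested on simulated data. Totals overlapped between groups; counts are reads, and a count of 0 allows up to 3.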

Additional observations from a re-analysis of the deposited data

Results flagged for a closer look

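Across 98 groups of 5 mice (the CPM of each tested subunit gene and the 8 log2 ratios, in controls and in nlsYAP5SA), 4 held a mouse far from the other 4 by Dixon's test, which chance alone gives in about 1 in 20 groups. nlsYAP5SA replicate 4 stood apart in 3 of them. Its Gria1 level was 368 CPM against 406 to 418 CPM in the other nlsYAP5SA mice, its Grin1 level 261 CPM against 312 to 323, and its Gabra2 level 52.0 CPM against 38.8 to 42.5. This mouse has Y-linked counts, and without it 5 of the 41 subunit genes fell against control. The log2 ratio of Slc12a5 to Slc12a2 was 1.95 in nlsYAP5SA replicate 2 against 2.31 to 2.42 in the other 4.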

How the results depend on the processing

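The 6 subunit genes that fell against control kept that direction in each of 23 alternative fits, and the number past the threshold was 1 with the Y-linked level as covariate, 11 with an ordinary loess offset for GC content and length, 0 in mice with Y-linked counts alone (chosen after seeing the data), and 4 to 7 when a mouse was left out. Against C57BL/6 (4 genes), it was 1 with library size alone, 11 with the ordinary loess offset, 0 in mice with Y-linked counts and 0 to 4 when a mouse was left out. No subunit rose in any fit of either comparison or differed between C57BL/6 and control. Of the receptor partners, the 2 that rose became 0 with the Y-linked or the Ttr level as covariate and in mice with Y-linked counts, and 0 to 3 when a mouse was left out. The 7 that fell became 13 with DESeq2, 2 with the Y-linked covariate, 22 with the ordinary and 12 with a robust loess offset, 0 in mice with Y-linked counts, and 2 to 8 when a mouse was left out. The lowest of these ranges, 2, came without nlsYAP5SA replicate 1 or 5. The causes were not tested.

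No label ties mice of the same number to a litter, and their deviations correlated at 0.18, -0.06, -0.24, -0.08 and 0.07 between nlsYAP5SA and control, so the numbers were not taken to pair them; 1 of the 5 nlsYAP5SA mice correlated best with its own number. With a replicate block, 4 subunit genes fell against control and 0 against C57BL/6, 3 partners fell and 0 rose. With the block and a robust loess offset, 7 and 0 subunit genes fell, 8 partners fell and 0 rose.

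The 5 log2 ratios given here kept their sign when a mouse was left out; Grin2a over Grin2b went from -0.11 to -0.06 without nlsYAP5SA replicate 4. With 5 mice a group, the spread of Grin2a and Grin2c (standard errors above 0.2) limits what could be shown for them.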
